A study of Rattus norvegicus with 9 samples.

Results

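The 10 genes described here, Ppargc1a, Nrf1, Tfam, Tfb2m, Polrmt, Mfn1, Mfn2, Opa1, Dnm1l and Fis1, govern how many mitochondria a cell makes and how these organelles fuse and divide. They were taken as the rows of the expression table that carry these symbols, a choice made with earlier results of these data known. Of the 34092 genes in the table, 9 were found under these names, and all 9 passed the filter on low values that left 15958 genes to test. Mfn2 was not analysed here. The RNA came from wild-type rat primary hippocampal neurons, dissociated from embryonic day 17 hippocampi and cultured for 7 days in vitro without mitotic inhibitors. The 3 control samples received vehicle, 3 received 1 nM human NPCT, the amino-terminal peptide of procalcitonin, for 24 h, and 3 received 1 nM human PCT, the parent protein, for 24 h. The methods describe RNA from pooled samples of biological triplicates while the labels number 3 replicates per group, so p-values measure the spread between these libraries, which may be technical.

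A cell makes new mitochondria from proteins of the nuclear and the mitochondrial genome, and the nucleus leads. PGC-1α (Ppargc1a) is a coactivator that works with DNA-binding factors such as nuclear respiratory factor 1 (Nrf1) and the GA-binding protein GABP to switch on nuclear genes for the respiratory chain and for mitochondrial transcription. Inside the organelle, the RNA polymerase POLRMT needs TFAM, which bends and packages mitochondrial DNA, and TFB2M, which opens the promoter. Mitofusins join outer membranes, OPA1 joins inner membranes and shapes the cristae, the dynamin-related GTPase DRP1 (Dnm1l) constricts and cuts the organelle, and FIS1 is an anchor of the outer membrane that takes part in fission. In neurons the balance of fusion and fission sets the size of the mitochondria that are carried along axons and dendrites.

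The promoters of these genes are shown first because NRF1 and GABP, the factors that PGC-1α works with, bind short GC-rich sites. The sequences were taken from RefSeq on the assembly GRCr8, as the 250 bases before each annotated start. All 9 genes had at least 1 such window, and Fis1 had more than 1. A gene was counted if any of its windows held a core, whereas the shares of all promoters count windows. The NRF1 core, spelled GCGCANGCG, was searched on both strands and was found in Opa1 and Tfb2m, that is in 2 of 9 genes, while 5.09% of 33469 promoters of this length held it. The GABP core, spelled CCGGAAG, was found in Tfam, Polrmt and Mfn1, that is in 3 of 9 genes, against 7.27% of all promoters. Neither spelling was present in the windows of Ppargc1a, Nrf1, Dnm1l or Fis1, which says only that these letters are not in these windows. The 3 windows below are printed 5′ to 3′ in the direction of transcription, for the pair of genes with an NRF1 core and for Tfam, the textbook target of both factors, with the matched core in capitals. The Opa1 window is chr11:84689901-84690150 on the minus strand, with the core 134 to 126 bases before the start. The Tfb2m window is chr13:93828595-93828844 on the minus strand, with the core on the opposite strand 46 to 38 bases before the start. The Tfam window is chr20:17355123-17355372 on the plus strand, with the GABP core 56 to 50 bases before the start.
Opa1: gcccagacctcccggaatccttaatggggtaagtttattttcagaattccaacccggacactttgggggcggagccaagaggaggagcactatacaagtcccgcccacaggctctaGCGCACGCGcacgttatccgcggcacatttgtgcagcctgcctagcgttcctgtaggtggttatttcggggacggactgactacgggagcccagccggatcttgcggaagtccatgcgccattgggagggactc
Tfb2m: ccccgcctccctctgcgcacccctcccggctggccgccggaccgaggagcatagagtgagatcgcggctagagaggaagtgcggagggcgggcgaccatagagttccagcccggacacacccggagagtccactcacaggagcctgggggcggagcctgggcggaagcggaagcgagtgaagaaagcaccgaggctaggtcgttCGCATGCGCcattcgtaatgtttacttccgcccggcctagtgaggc
Tfam: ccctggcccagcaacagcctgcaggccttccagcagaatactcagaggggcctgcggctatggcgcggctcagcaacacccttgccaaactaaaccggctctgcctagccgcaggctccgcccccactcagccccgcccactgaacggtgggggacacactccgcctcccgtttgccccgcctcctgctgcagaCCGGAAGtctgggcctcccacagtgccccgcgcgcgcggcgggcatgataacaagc

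Some facts of the libraries bear on all values below. The 9 libraries held 13573056 to 17211642 fragments on genes, and each of the 9 genes was covered by 133 (Tfb2m) to 2730 (Dnm1l) fragments per library. Neuron markers were high in every library (summed level of 14 genes, 2732 to 3021 FPKM), and so were markers of astrocytes (10 genes), at 2203 to 2367 FPKM in control, 2146 to 2293 with NPCT and 1948 to 2017 with PCT. From control to NPCT, single markers moved both ways within these sums. Mean Map2 went from 195 to 146 and Snap25 from 121 to 90.8 FPKM, but Slc17a7 from 114 to 139 and Tubb3 from 650 to 733. From control to PCT, Gfap was the only astrocyte marker with a higher mean, at 776 and 919 FPKM. All other astrocyte markers were lower with PCT, among them Aldoc (331 to 187), Slc1a2 (121 to 73.5), Slc1a3 (637 to 509) and Aqp4 (201 to 129). Of 12 microglia markers 11 had a row, and their sum was 27.7 to 39.7 FPKM in control, 38.8 to 177 with NPCT, where replicate 3 was the highest, and 14.3 to 19.1 with PCT. Each of these 11 had a lower mean with PCT than in control. The sum of 10 oligodendrocyte lineage markers was 475 to 491, 517 to 553 and 431 to 449 FPKM in control, NPCT and PCT, and that of 6 proliferation markers was 51.4 to 76.7 FPKM over all libraries. No marker with a row was at 0 in a whole group. The levels are therefore those of a mixed culture, in which fewer cells of a type and less RNA per cell cannot be told apart, and the part of these markers in the results was not tested. PCT replicate 3 stood apart from PCT replicates 1 and 2. RNA of the mitochondrial genome took 4.11% of its fragments, against 6.21% and 5.46% in PCT replicates 1 and 2, 5.18% to 5.84% in control and 3.70% to 4.17% with NPCT. The main results that rest on this library are given with and without it. Long genes were also lower and short genes higher with NPCT. The median log2 fold change against vehicle was 0.12 in the shortest 5320 genes tested, 0.03 in the middle 5322 and -0.08 in the longest 5316. With PCT these medians were 0.06, 0.01 and -0.03. The slope with gene length was -0.029 in PCT replicate 3 and 0.022 and 0.025 in PCT replicates 1 and 2. It ran from -0.028 to -0.017 with NPCT and from -0.002 to 0.030 in control.

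FPKM is a level per gene length, so the genes can be ranked within a group. In the control libraries Dnm1l had the highest level of the 9 (64.5 ± 4.54 FPKM, SD, n = 3), followed by Opa1 (45.6 ± 0.46) and Fis1 (41.4 ± 5.30), whose ranges overlapped. Mfn1 (25.9 ± 0.64) and Tfam (17.8 ± 0.37) came next, each apart from its neighbours. Nrf1 (8.17 ± 0.54), Ppargc1a (7.53 ± 0.67), Polrmt (7.13 ± 0.26) and Tfb2m (7.02 ± 0.56) were lowest, and each overlapped its neighbours in that order. Of these 9 genes, the 4 of fusion and fission thus had higher RNA levels than Ppargc1a, Nrf1 and Polrmt. With NPCT the order at the top was different, with Fis1 (58.3 ± 3.52) above Dnm1l (49.5 ± 3.20) in every library and without overlap of their ranges. With PCT, Dnm1l (64.7 ± 8.20) stood above Fis1 (55.2 ± 7.22) by mean, and their ranges overlapped.

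**Figure D1:**
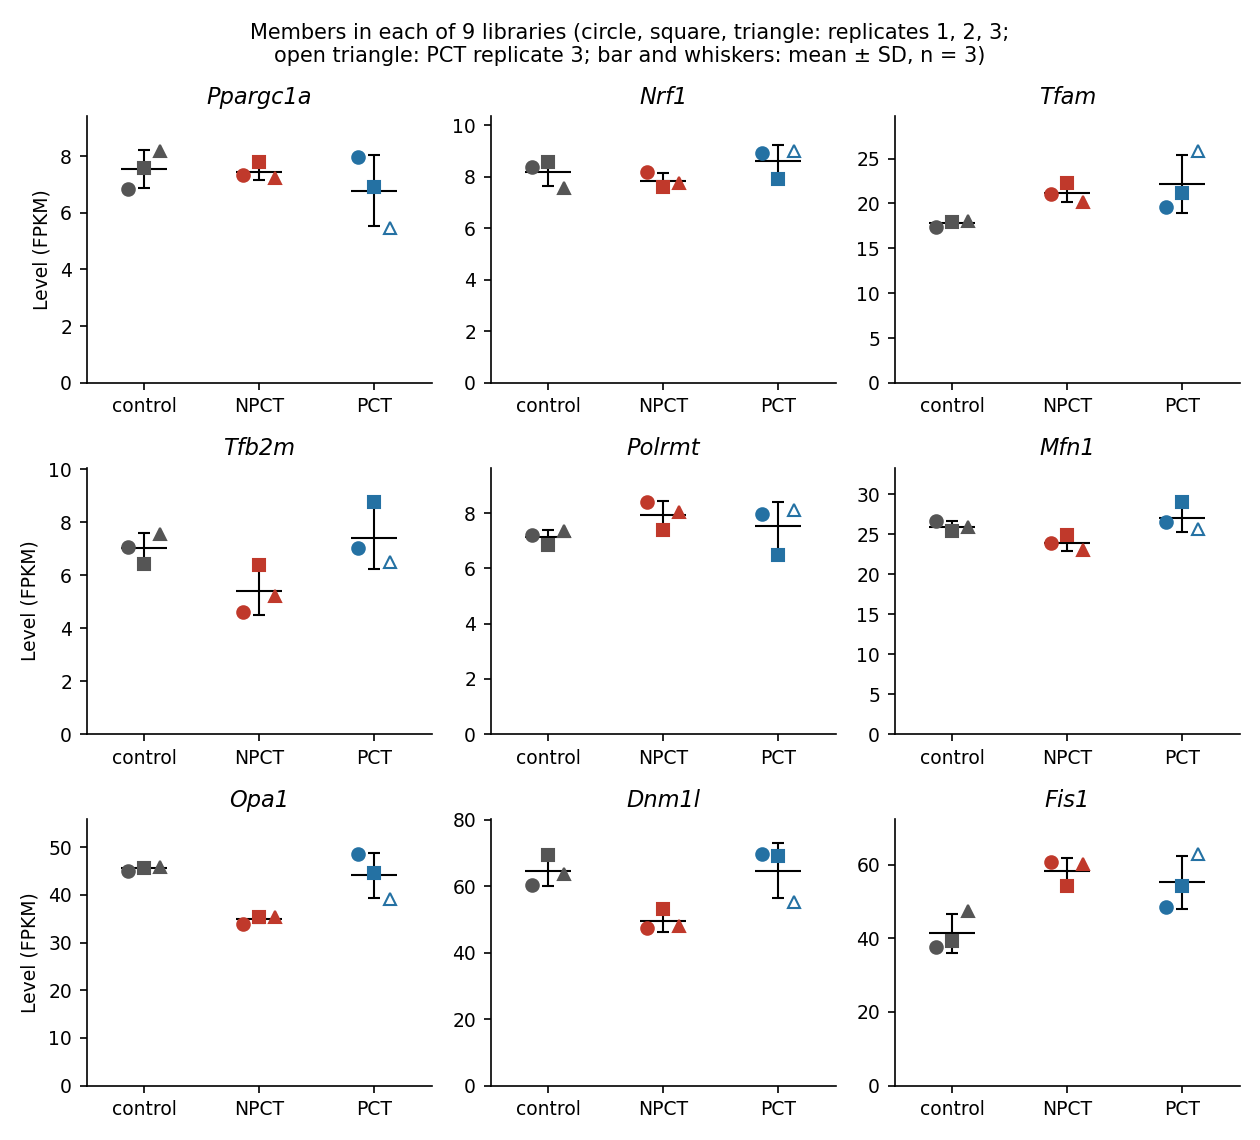
Level of 9 genes in FPKM (vertical axis, from 0) in each of 9 libraries, with 1 panel per gene. Grey, red and blue points are control, NPCT and PCT libraries, the horizontal bar is the mean and the whiskers are ± 1 SD (n = 3). Opa1 and Dnm1l of the 3 NPCT libraries lie below all control and PCT libraries, Fis1 and Tfam of the NPCT and PCT libraries lie above all controls, and PCT replicate 3 (open triangle) lies nearest to the NPCT libraries for Opa1 and Dnm1l.

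NPCT was compared with vehicle to ask what the peptide does to neuronal transcripts. Genes of fusion, fission and mitochondrial transcription stood apart from vehicle in both directions. Tfb2m was at 0.766, Opa1 at 0.767 and Dnm1l at 0.769 times the vehicle level and Fis1 at 1.41 times, with no overlap between the groups, whereas Ppargc1a and Nrf1 lay inside the control range. None of the 9 genes passed the test across all genes (limma, adjusted p of at most 0.05, 0 of 9, with 5 of 9 at an unadjusted p under 0.05, beside 29.3% of all genes), a test that 0.47% of all genes passed. With limma-voom on recovered fragments 3 of 9 were called, beside 9.49% of all genes. At the same adjusted p and a fold change above 1.5, the study's rule for a DEG, 0.219% of all genes were called and 0 of 9 here. The 3 NPCT and 3 control values did not overlap for 7 of 9 genes, 3 higher and 4 lower with NPCT. Over all genes tested, 40.3% did not overlap, 20% higher and 20.3% lower.

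The fusion genes come first. Opa1 (ENSRNOG00000001717, Rnor_6.0 chromosome 11, 74720254 to 74793803, minus strand), the inner membrane fusion GTPase whose promoter is printed above, was at 45.03, 45.71 and 45.92 FPKM in control replicates 1, 2 and 3 and at 34.0, 35.4 and 35.4 FPKM in NPCT replicates 1, 2 and 3. All 3 NPCT libraries lay below all controls, and the replicates of each group were close together. The difference was -0.38 on the log2 scale (SE 0.08, adjusted p = 0.0509 by limma), just outside the threshold. Mfn1 (ENSRNOG00000011057, chromosome 2, 118929738 to 118973698, plus strand), an outer membrane mitofusin, was at 26.6, 25.3 and 25.9 FPKM in control and at 23.9, 25.0 and 23.0 FPKM with NPCT. The groups were apart by a narrow margin, and the difference was small (log2 fold change -0.12, SE 0.07, limma adjusted p = 0.261).

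Of the fission genes, Dnm1l had lower and Fis1 higher values than vehicle, and neither passed the test. Dnm1l (ENSRNOG00000001813, chromosome 11, 88830957 to 88880198, plus strand), which encodes the GTPase DRP1, was at 60.4, 69.3 and 63.8 FPKM in control and at 47.4, 53.2 and 47.9 FPKM with NPCT. The highest NPCT library stayed below the lowest control (log2 fold change -0.38, SE 0.10, limma adjusted p = 0.0608). Fis1 (ENSRNOG00000001420, chromosome 12, 22750485 to 22765308, minus strand), the outer membrane anchor, was at 37.5, 39.2 and 47.4 FPKM in control and at 60.70, 54.29 and 60.03 FPKM with NPCT. Here the lowest NPCT library stood above the highest control, replicate 3 (log2 fold change 0.50, SE 0.11, limma adjusted p = 0.0530). The ratio of Fis1 to Dnm1l within a library was 0.622, 0.565 and 0.744 in control and 1.28, 1.02 and 1.25 with NPCT, so that Fis1 was below Dnm1l in every control and above it in every NPCT library. The mean ratio was 0.643 ± 0.091 in control and 1.18 ± 0.14 with NPCT (SD, n = 3, p = 0.1 by exact two-sided permutation, which is the lowest value 3 against 3 can reach). The ratio of Opa1 to Dnm1l did not differ beyond the spread, at 0.709 ± 0.045 in control and 0.707 ± 0.038 with NPCT (n = 3, exact two-sided p = 0.9).

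The genes of mitochondrial transcription did not share a direction either. Tfam (ENSRNOG00000000613, chromosome 20, 18594037 to 18606151, plus strand), which packages mitochondrial DNA and bends its promoters, was at 17.4, 17.9 and 18.1 FPKM in control and at 21.1, 22.2 and 20.2 FPKM with NPCT. Every NPCT library was above every control (log2 fold change 0.25, SE 0.10, limma adjusted p = 0.134). Tfb2m (ENSRNOG00000002695, chromosome 13, 97820493 to 97838228, minus strand), the promoter-opening factor, was at 7.07, 6.43 and 7.55 FPKM in control and at 4.60, 6.37 and 5.20 FPKM with NPCT. NPCT replicate 2 almost reached the lowest control (log2 fold change -0.38, SE 0.15, limma adjusted p = 0.128). Polrmt (ENSRNOG00000024879, chromosome 7, 12840938 to 12851153, plus strand), the polymerase itself, was at 7.21, 6.84 and 7.34 FPKM in control and at 8.38, 7.39 and 8.02 FPKM with NPCT. NPCT replicate 2 again lay next to the highest control (log2 fold change 0.15, SE 0.10, limma adjusted p = 0.364). Tfb2m per Tfam was 0.394 ± 0.031 in control and 0.254 ± 0.034 with NPCT, without overlap (SD, n = 3, exact two-sided permutation p = 0.1, again the lowest value). Polrmt per Tfam was 0.401 ± 0.017 and 0.376 ± 0.038 (n = 3, exact two-sided p = 0.4), a difference within the spread.

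The regulators upstream showed the smallest differences. Ppargc1a (ENSRNOG00000004473, chromosome 14, 63095720 to 63187009, plus strand) was at 6.84, 7.58 and 8.18 FPKM in control and at 7.32, 7.79 and 7.24 FPKM with NPCT. The NPCT values lay inside the control range (log2 fold change -0.01, 95% interval -0.32 to 0.29, limma adjusted p = 0.961). Nrf1 (ENSRNOG00000008752, chromosome 4, 57378069 to 57445341, plus strand) was at 8.37, 8.59 and 7.57 FPKM in control and at 8.18, 7.59 and 7.75 FPKM with NPCT, again inside the control range (log2 fold change -0.06, 95% interval -0.26 to 0.14, limma adjusted p = 0.694). Over the 9 genes the median log2 fold change was -0.06, beside 0.01 over all genes tested.

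**Figure D2:**
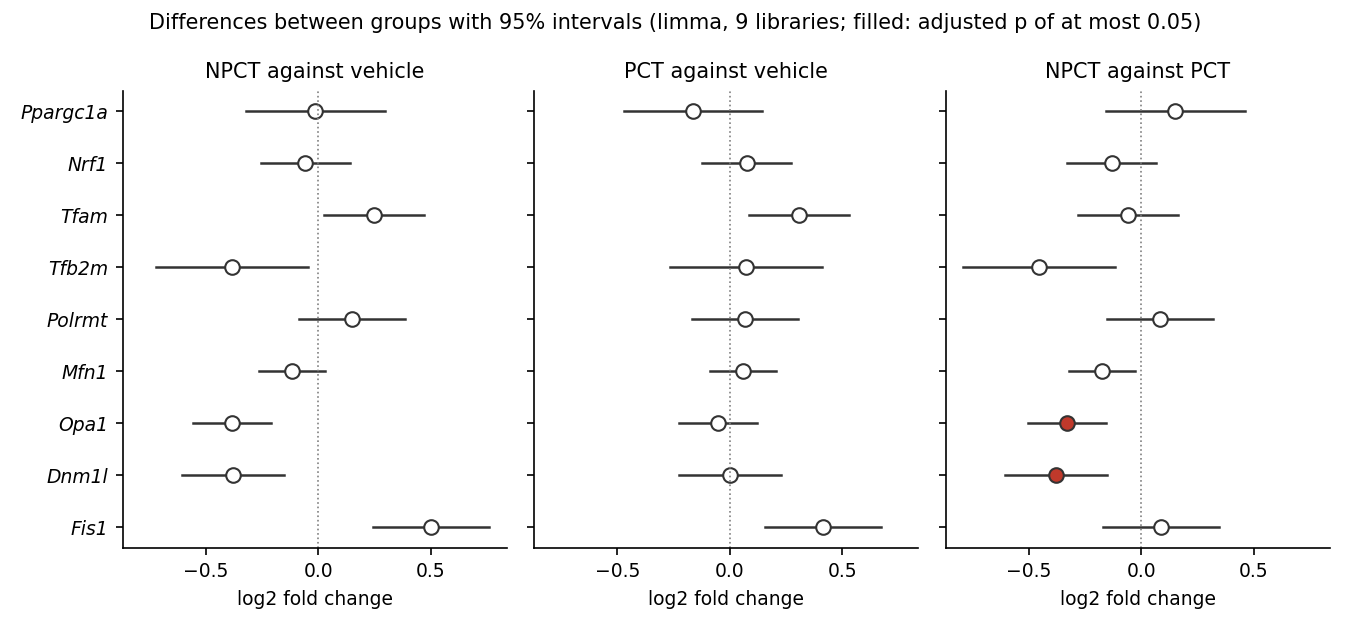
Log2 fold change (horizontal axis) of 9 genes in the 3 comparisons, with the 95% interval of the limma fit over 9 libraries as a line. Filled red points passed an adjusted p of at most 0.05, which only Opa1 and Dnm1l did, in NPCT against PCT. Against vehicle the intervals of Opa1, Dnm1l, Tfb2m, Tfam and Fis1 with NPCT, and of Tfam and Fis1 with PCT, do not reach 0.

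The calls in this comparison changed with the libraries fitted and with other settings. The fit of all groups estimates a single spread per gene over all 9 libraries, PCT included. When only the NPCT and control libraries were fitted, 18.9% of all genes and 4 of 9 here were called, namely Opa1 (limma adjusted p = 0.00517), Dnm1l (0.0151), Fis1 (0.0158) and Tfam (0.0316). Without PCT replicate 3 in the fit of all groups, 19.3% of all genes were called in this comparison, with the same 4 genes at adjusted p = 0.00405, 0.00870, 0.0113 and 0.0274. Both fits keep the same 3 NPCT and 3 control libraries, so the fold changes were nearly fixed (Opa1 -0.38 to -0.39, Fis1 0.50). Their agreement says nothing on how stable they are. Without PCT replicate 1, Fis1 and Opa1 were called, beside 4.47% of all genes. Without any other single library none of the 9 was, and each of those fits called at most 0.0125% of all genes. With all 9 libraries kept, Fis1 and Opa1 were called at a mean FPKM of at least 1 and after quantile normalization. These settings called 5.05% and 3.77% of all genes. Gene length moved with part of the result, and its part was not tested beyond the following values. Fis1 (1237 bases) and Tfam (1520), higher with NPCT, are shorter than Dnm1l (2639), Opa1 (3243) and Mfn1 (4316), which were lower. Polrmt (3745 bases) is long and was higher, and Tfb2m (2067) is shorter than Dnm1l and was as low. After the length trend of each library was removed, the log2 fold change was -0.32 for Opa1 (adjusted p = 0.0490, now called), -0.35 for Dnm1l (0.0664), 0.42 for Fis1 (0.0572), 0.19 for Tfam (0.215) and -0.02 for Mfn1 (0.848). In the same fit Polrmt went from 0.15 to 0.23 (adjusted p = 0.209) and Tfb2m from -0.38 to -0.39 (0.131). That fit called 2.33% of all genes.

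PCT, the parent protein, was compared with vehicle in the same way, against the same 3 controls. Fis1 and Tfam stood above all controls with PCT, and the other 7 genes overlapped with control. In this comparison 4.2% of all genes were called and 2.31% were DEGs, and neither count held any of the 9 genes (limma, 0 of 9, with 2 of 9 at an unadjusted p under 0.05, beside 18.9% of all genes). With limma-voom 0 of 9 were called, beside 4.93% of all genes. The groups were apart for 2 of 9 genes, both higher, and for 24.9% of all genes, 13.1% higher. Fis1 was at 48.5, 54.2 and 62.9 FPKM in PCT replicates 1, 2 and 3, all above the highest control at 47.4 FPKM (log2 fold change 0.41, SE 0.11, limma adjusted p = 0.0832). Tfam was at 19.6, 21.2 and 25.8 FPKM, all above the highest control at 18.1 FPKM (log2 fold change 0.31, SE 0.10, limma adjusted p = 0.126). For both genes PCT replicate 3 was the highest of the 9 libraries.

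Among the overlapping genes, Opa1 was at 48.6, 44.6 and 39.1 FPKM with PCT (log2 fold change -0.05, 95% interval -0.23 to 0.12), and Dnm1l at 69.7, 69.1 and 55.2 FPKM (log2 fold change -0.0014, interval -0.23 to 0.22). In both genes replicate 3 was the lowest PCT library and lay below all controls, as replicate 2 also did for Opa1. The ratio of Fis1 to Dnm1l was 0.696, 0.784 and 1.14 with PCT, so replicate 3 was the only PCT library with more Fis1 than Dnm1l. The mean of 0.873 ± 0.234 did not differ from control beyond the spread (SD, n = 3, exact two-sided permutation p = 0.2). The difference from control was 0.230, and 0.0968 without PCT replicate 3. Tfb2m per Tfam was 0.341 ± 0.082 with PCT, a difference from control within the spread (SD, n = 3, exact two-sided p = 0.4). Ppargc1a was at 7.95, 6.91 and 5.46 FPKM (log2 fold change -0.16, SE 0.14, limma adjusted p = 0.581), and replicate 3 held the lowest level of that gene in any library. Without that library its log2 fold change was -0.02. Mfn1 was at 26.5, 29.0 and 25.7 FPKM, Nrf1 at 8.935, 7.904 and 8.998, Polrmt at 7.97, 6.48 and 8.10 and Tfb2m at 7.01, 8.75 and 6.51, with log2 fold changes of 0.06 to 0.07. The median over the 9 genes was 0.07, beside 0.00 over all genes tested. Without PCT replicate 3, 4.19% of all genes and 0 of 9 here were called, with log2 fold changes of 0.31 for Fis1 (adjusted p = 0.137) and 0.19 for Tfam (0.158). With the length trend removed they were 0.38 for Fis1 (limma adjusted p = 0.0771) and 0.28 for Tfam (0.137). The part of length was not tested further.

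Between the peptides, Opa1 and Dnm1l passed the test when all 9 libraries were fitted, and neither did in the fit of the NPCT and PCT libraries alone (limma adjusted p = 0.0863 and 0.0909). Opa1 fell by 0.33 on the log2 scale with NPCT relative to PCT (SE 0.08, limma adjusted p = 0.0241), and Dnm1l fell by 0.38 (SE 0.10, limma adjusted p = 0.0355). Opa1 was at 34.0 to 35.4 FPKM with NPCT and 39.1 to 48.6 with PCT, and Dnm1l at 47.4 to 53.2 and 55.2 to 69.7, without overlap. Opa1 was at 0.795 and Dnm1l at 0.769 times the level with PCT. The call of Opa1 held in 14 and that of Dnm1l in 9 of 20 alternative settings. Among these 20, the fit of the FPKM as deposited, without scaling, repeated the main fit. The count of 2 of 9 genes called, both lower, stands beside 16.3% of all genes called and 8.32% called lower with NPCT. No gene of the 9 was a DEG at a fold change above 1.5, as were 5.76% of all genes.

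Tfb2m and Mfn1 were also apart between the peptides, which made 4 of 9 genes, all lower with NPCT, beside 18% of all genes apart and lower and 33.4% apart in either direction. Tfb2m was at 4.60 to 6.37 FPKM with NPCT and 6.51 to 8.75 with PCT (log2 fold change -0.46, SE 0.15, limma adjusted p = 0.0681). Mfn1 was at 23.0 to 25.0 and 25.7 to 29.0 FPKM (log2 fold change -0.17, SE 0.07, limma adjusted p = 0.0996). Fis1 differed by 0.09 (95% interval -0.17 to 0.34) and Tfam by -0.06 (interval -0.28 to 0.16), so that the genes standing above vehicle under both treatments had no detectable difference between the peptides. Ppargc1a (0.15), Nrf1 (-0.13) and Polrmt (0.08) had log2 fold changes with an interval that includes 0, and that of Ppargc1a was 0.0056 without PCT replicate 3. The median was -0.13 over the 9 genes and -0.01 over all genes tested. The ratio of Fis1 to Dnm1l was 0.311 higher with NPCT than with PCT (n = 3, exact two-sided p = 0.2). Tfb2m per Tfam differed by -0.0869 (n = 3, exact two-sided p = 0.3), and PCT replicate 3, at 0.252, lay inside the NPCT range.

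**Figure D3:**
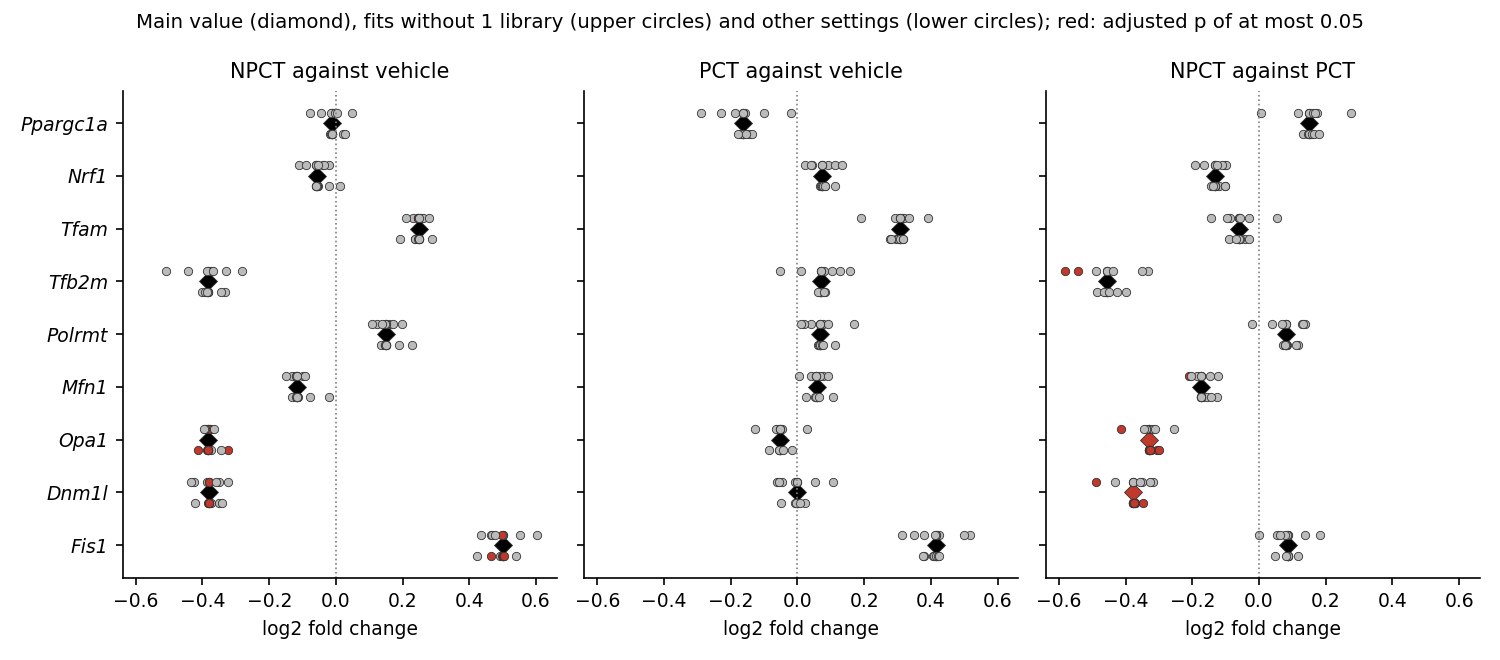
Log2 fold change (horizontal axis) of 9 genes in the 3 comparisons in the fit of all 9 libraries (diamond), 9 fits that leave out 1 library each (upper circles) and the other settings (lower circles), in red where the adjusted p was at most 0.05. Opa1, Dnm1l and Fis1 keep their side of 0 in NPCT against vehicle, whereas red and grey points mix. Some settings, such as another filter or a PCT library left out, leave that fold change unchanged or nearly so.

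PCT replicate 3 weighed on this comparison too. Without it 29.2% of all genes were called, and 4 of 9 here, namely Opa1 (log2 fold change -0.41, limma adjusted p = 0.00166), Dnm1l (-0.49, 0.00298), Tfb2m (-0.54, 0.0345) and Mfn1 (-0.21, 0.0437). Without PCT replicate 1, PCT replicate 2, NPCT replicate 1 or NPCT replicate 3, none of the 9 genes was called. Those fits called 6.43%, 6.41%, 6.32% and 9.13% of all genes, in that order. Without NPCT replicate 2 only Tfb2m was called, beside 8.79% of all genes. Without any 1 of the 3 control replicates Opa1 kept its call and Dnm1l lost it, beside 10.6% to 12.4% of all genes called. The fit of the NPCT and PCT libraries alone called none of them and 4.6% of all genes (adjusted p = 0.0863 for Opa1 and 0.0909 for Dnm1l). In all of these fits the log2 fold change stayed between -0.26 and -0.41 for Opa1 and between -0.32 and -0.49 for Dnm1l.

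The wider pathway was read from 8 lists of genes with related roles, 88 of which were tested besides the 9 genes. With NPCT against vehicle 1 of 88 was called (36 at an unadjusted p under 0.05, a level that 29.3% of all genes reached), with PCT against vehicle 3 of 88, all higher, and between the peptides 17 of 88, 3 higher and 14 lower with NPCT. The shares of all genes called were 0.47%, 4.2% and 16.3% in the same order, and 8.32% lower with NPCT between the peptides. These counts moved with the libraries fitted. When 1 library was left out, 0 to 23 of 88 were called with NPCT against vehicle, 0 to 3 with PCT and 2 to 30 between the peptides. The shares of all genes called moved too, over 0% to 19.3%, 1.3% to 4.53% and 6.32% to 29.2%. The fit of only the 2 groups called 23 with NPCT against vehicle and 1 between the peptides, beside 18.9% and 4.6% of all genes. The highest counts of 23 and 30 were without PCT replicate 3, and the lowest between the peptides was without PCT replicate 2. The counts per list given here are those of the fit of all 9 libraries. The median log2 fold change of the 88 genes was -0.08, 0.07 and -0.13 in the 3 comparisons, in the order given.

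Mtfp1, a fission protein of the inner membrane, was the gene called with NPCT against vehicle and was among those called with PCT. It was at 4.21, 4.24 and 3.85 FPKM in control, at 6.30, 5.83 and 5.94 with NPCT and at 6.33, 5.73 and 5.90 with PCT. Every treated library was above every control, and the peptides overlapped. It rose by 0.54 on the log2 scale with NPCT (SE 0.09, limma adjusted p = 0.0493) and by 0.54 with PCT (limma adjusted p = 0.0146). The call with NPCT held in 11 and that with PCT in 17 of 20 alternative settings. Without PCT replicate 3 the call with PCT held (limma adjusted p = 0.0294), and with limma-voom it was lost (adjusted p = 0.0502). Of the 12 fission genes tested besides Dnm1l and Fis1, 2 were called lower with NPCT than with PCT, beside 16.3% of all genes called and 8.32% called lower. The median of the 12 was -0.11 with NPCT and 0.01 with PCT against vehicle. The 9 other genes of fusion and the inner membrane proteases had medians of 0.16 and 0.23 in these comparisons, and 0 of 9 were called by limma in either (4 and 5 at an unadjusted p under 0.05, beside 29.3% and 18.9% of all genes). With NPCT 6 of 9 were above and 2 below all controls, beside 20% and 20.3% of all genes, and with PCT 5 of 9 were above, beside 13.1%.

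The next lists hold the upstream regulators and the mitochondrial transcription machinery, compared between the peptides. Of 14 other coactivators and nuclear regulators, 2 were called, both lower with NPCT, beside 16.3% of all genes called and 8.32% called lower. Prkaa2, the α2 catalytic subunit of the energy sensor AMPK, was at 13.9, 14.3 and 14.1 FPKM in control, 10.2, 9.41 and 7.40 with NPCT and 14.9, 14.1 and 10.9 with PCT. All NPCT libraries lay below all others (log2 fold change -0.56 against PCT, SE 0.14, limma adjusted p = 0.0311, and -0.66 against vehicle, adjusted p = 0.0516). Of 10 other genes of mitochondrial transcription and the nucleoid, 4 were called, all lower with NPCT than with PCT, beside 16.3% of all genes called and 8.32% called lower. Mterf2, a mitochondrial transcription termination factor family member, was a DEG, at 4.73, 4.70 and 4.07 FPKM in control, 2.79, 2.98 and 2.25 with NPCT and 4.01, 4.58 and 3.78 with PCT. It fell by 0.61 on the log2 scale relative to PCT (SE 0.14, limma adjusted p = 0.0231), and its log2 fold change against vehicle was -0.74 (limma adjusted p = 0.0509). Lonp1, the matrix protease that degrades TFAM, rose by 0.47 with PCT against vehicle (SE 0.08, limma adjusted p = 0.0141), from 42.1 to 45.6 FPKM in control to 57.6, 59.0 and 64.5 FPKM, and was at 47.2, 47.8 and 55.9 FPKM with NPCT, between the other groups. Without PCT replicate 3 it kept its call with PCT (log2 fold change 0.42, limma adjusted p = 0.0272). That call held in 18 of 20 alternative settings, with a highest adjusted p of 0.0708. The calls of Prkaa2 and Mterf2 between the peptides held without PCT replicate 3 (log2 fold change -0.69 and -0.67, limma adjusted p = 0.00575 and 0.0158) and were lost in the fit of the NPCT and PCT libraries alone (0.0940 and 0.0747).

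RNA processing, DNA replication, transport and mitophagy held the rest. Among 13 genes of mitochondrial RNA processing, 1 was called higher and 1 lower with NPCT than with PCT, near the 16.3% of all genes called. Pnpt1, the polynucleotide phosphorylase that degrades mitochondrial RNA, was the DEG of that list with all 9 libraries fitted, at 6.32, 7.35 and 7.51 FPKM with NPCT and 11.145, 11.999 and 8.927 with PCT, the last of these being replicate 3 (log2 fold change -0.59, SE 0.13, limma adjusted p = 0.0188). Its fold change only just passed 1.5, and its log2 fold change was smaller, and below that limit, in the fit of the 2 groups (-0.584), with limma-voom (-0.579), with the length trend removed (-0.557) and with scaling by total fragments (-0.555). In control Pnpt1 was at 8.13 to 9.44 FPKM. It was not called against vehicle (log2 fold change -0.35 with NPCT and 0.24 with PCT, limma adjusted p = 0.114 and 0.355). Fastk, which encodes an RNA-binding protein of the FASTK family, rose by 0.27 with NPCT relative to PCT (limma adjusted p = 0.0179). It was not called against vehicle (0.11 with NPCT and -0.16 with PCT, limma adjusted p = 0.236 and 0.167). Of 11 genes of mitochondrial DNA replication 0 were called by limma in any comparison (3, 1 and 0 at an unadjusted p under 0.05, beside 29.3%, 18.9% and 33.1% of all genes). Polg, the catalytic subunit of the replicative polymerase, was at 18.3 FPKM on average with NPCT, 17.5 with PCT and 15.2 with vehicle (log2 fold change 0.26 for NPCT against vehicle, limma adjusted p = 0.0973). Of 9 transport genes 1 was called higher and 2 lower with NPCT than with PCT, beside 16.3% of all genes called and 8.32% called lower. The higher gene was Snph, the axonal anchor syntaphilin (log2 fold change 0.30, SE 0.07, limma adjusted p = 0.0244). Snph was not called against vehicle (0.13 with NPCT and -0.17 with PCT, limma adjusted p = 0.235 and 0.238). Of 10 mitophagy genes 1 was called higher and 3 lower in that comparison, beside 16.3% of all genes called and 8.32% called lower. Sqstm1, the autophagy receptor p62, rose by 0.41 with PCT against vehicle (SE 0.08, limma adjusted p = 0.0288), with an adjusted p of 0.0504 once PCT replicate 3 was left out, and its log2 fold change with NPCT was 0.29 (limma adjusted p = 0.0664). The calls of Pnpt1, Fastk and Snph between the peptides held without PCT replicate 3 (log2 fold change -0.71, 0.30 and 0.27, limma adjusted p = 0.00310, 0.00526 and 0.0264) and were lost in the fit of the NPCT and PCT libraries alone (0.0623, 0.0701 and 0.0712).

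**Figure D4:**
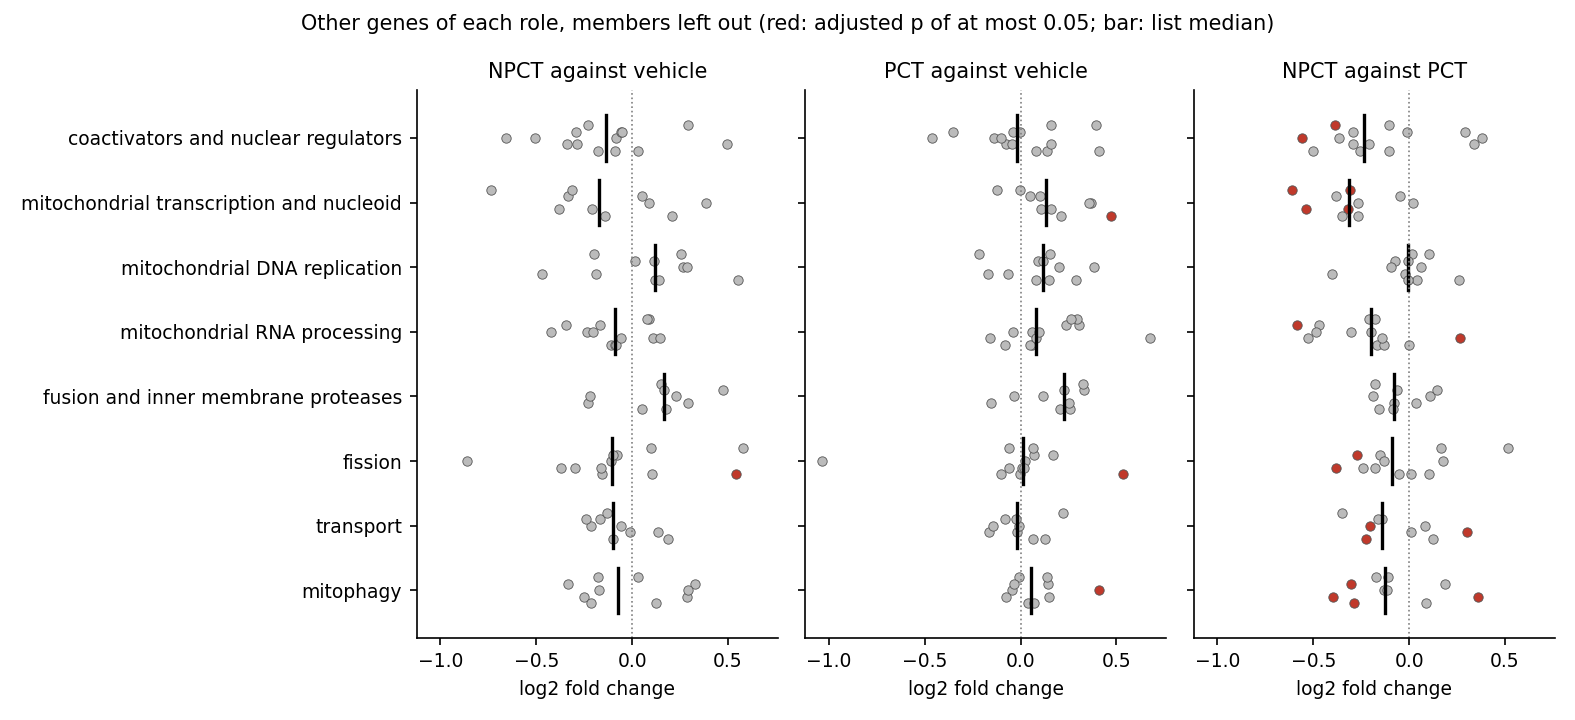
Log2 fold change (horizontal axis) of the 88 other genes in 8 role lists (rows), the 9 genes described above left out, in the 3 comparisons. Each point is a gene, red where the limma adjusted p was at most 0.05, and the bar is the list's median. Red points number 1, 3 and 17 from left to right, and most of those in NPCT against PCT lie below 0.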

How the data were processed

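RNA of 9 libraries, 3 per group, was sequenced by the authors. According to the submitters' processing notes and the methods, reads were aligned to Rnor_6.0 with HISAT2 2.0.5, counted per gene with featureCounts 1.5.0-p3 and converted to FPKM, the unit of the deposited table. FPKM multiplied by length gave whole fragments in 100% of values (tolerance 0.05 of a fragment), and the median ratio scale factor of each library was 1. Genes whose mean FPKM reached 0.5 were fitted as log2(FPKM + 0.1), a scale that understates the change of low genes, with limma 3.58.1 (trended prior, R 4.3.3), 1 mean per group over all 9 libraries, and p-values were adjusted by Benjamini-Hochberg over the 15958 genes in each comparison. A gene was called where the adjusted p was 0.05 or lower, and was a DEG with a fold change also above 1.5. The script was tested on simulated data. Ratios were compared by exact permutation tests, and a planned ratio with Mfn2 was not computed. The number of fragments limits the precision of low genes such as Tfb2m. The members, role lists and marker lists were chosen with earlier results of these data known. The genes named from the role lists are every DEG and the gene with the smallest p of each list. The 20 alternatives covered pseudocount, filter, scaling, length, the samples fitted, a replicate block, limma-voom and each library left out. The setting with the FPKM as deposited repeated the main fit, since every scale factor was 1. It adds nothing to the counts of settings in which a call held. Those for the role list genes and the scaling by total fragments were chosen after seeing the data.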

Additional observations from a re-analysis of the deposited data

How the results depend on the processing

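The sign of the log2 fold change of Opa1, Dnm1l, Fis1, Tfam, Tfb2m, Mfn1 and Polrmt in NPCT against vehicle was the same in all 20 alternatives, and that of Ppargc1a, Fis1, Tfam, Mfn1, Nrf1 and Polrmt in PCT against vehicle likewise. Several of the 20 could not decide this. Another filter, the FPKM as deposited and the replicate block leave a difference of group means as it was. Leaving out libraries of the group not compared, or fitting only the 2 groups, moves it very little. The calls were less stable. With NPCT against vehicle, the number of the 9 genes called went from 0 to 2 at a mean FPKM of at least 1, 2 after quantile normalization, 4 in the fit of only the 2 groups, 1 with the length trend removed and 3 with limma-voom on recovered fragments, and to between 0 and 4 when 1 library was left out. Of the 88 other genes, 1 in the main analysis, the same settings called 4, 3, 23, 3 and 9, no filter and scaling by total fragments called 0, and leaving out a library gave 0 to 23. The median of the 9 genes went from -0.06 to 0.0121 with the length trend removed and to -0.0193 with scaling by total fragments, and lay between -0.112 and -0.0202 without 1 library. With PCT against vehicle, leaving out a library gave 0 to 3 other genes, and medians of 0.00595 to 0.0913. Between the peptides, the 9 genes gave 1 call without a filter, 1 after quantile normalization, 0 in the fit of only the 2 groups and 0 to 4 without 1 library, and the 88 other genes gave 1 in the fit of only the 2 groups and 2 to 30 without 1 library. Replicate numbers did not pair the libraries (correlation of same-numbered deviations -0.07 to 0.03). With the replicate block, 3 of the 9 genes (Dnm1l, Fis1, Opa1) and 9 of the 88 were called with NPCT against vehicle, and 1235 genes in all rather than 75, while the calls of the 9 genes in the other comparisons did not change. Across all genes, the 75 calls with NPCT against vehicle went to 734 at a mean FPKM of at least 1, 11 without a filter, 601 after quantile normalization (273 higher and 328 lower, against 43 and 32), 372 with the length trend removed, 1515 with limma-voom, 3021 in the fit of only the 2 groups, 0 with scaling by total fragments and 0 to 3080 without 1 library. The 671 calls with PCT went to 408 in the fit of only the 2 groups and 208 to 723 without 1 library, and the 2599 calls between the peptides to 734 and 1009 to 4652.

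Signs that changed belonged to differences that passed no test in either setting, and the cause was not tested. With NPCT against vehicle, Ppargc1a was at 0.0223 with the length trend removed, 0.0259 with scaling by total fragments and -0.0781 to 0.0482 without 1 library, and Nrf1 at 0.0121 with the length trend removed. With PCT against vehicle, Dnm1l was at 0.0217 with the length trend removed, 0.00681 with scaling by total fragments and -0.0621 to 0.106 without 1 library. Leaving out 1 library in that comparison gave -0.128 to 0.0291 for Opa1, -0.191 to 0.0318 for Prkaa2 and -0.0519 to 0.157 for Tfb2m. Between the peptides, Mtfp1 was at -0.0219 after quantile normalization and -0.0238 with the length trend removed. Leaving out 1 library gave -0.0248 to 0.0515 for Mtfp1, -0.000423 to 0.184 for Fis1, -0.0200 to 0.138 for Polrmt and -0.143 to 0.0549 for Tfam.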
